A study of Arabidopsis thaliana with 12 samples.

Results

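The comparison described here is that of caesium-exposed with control shoots of Arabidopsis thaliana, the small cress widely used as a model plant. It rests on 6 of the 12 ATH1 arrays of a study on low chronic exposure to caesium-137: the 3 arrays whose titles read control-shoot and the 3 whose titles read cs-shoot, each numbered 1 to 3. The label cs was read as caesium from the title of the series. All 6 arrays carried total RNA of shoots at the developmental stage labelled 1.0, and no mutant, transgene or second agent was labelled in either group. The sources used here do not give the plant accession, the dose, the length of exposure or whether replicates came from separate plantings. The p-values therefore measure how far these samples spread, and that spread may be technical only. The other 6 arrays, of roots of the same 2 exposures, were used only to show where shoots differed from roots.

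Caesium-137 decays with the release of beta and gamma radiation, and caesium ions enter plants largely through potassium transport proteins. Ionising radiation breaks DNA and forms reactive oxygen species, and plants answer strong doses with transcripts for DNA repair, for cell cycle arrest and for antioxidant and flavonoid metabolism. In shoots most of the abundant messenger RNA serves photosynthesis, and part of the photosynthetic machinery is encoded in the plastid genome.

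An ATH1 array reports 1 signal per probe set, a group of short probes for a transcript. After 64 control probe sets were set aside, 22746 remained. Of these, 13431 had a mean signal of at least 30 over the 6 shoot arrays and are called bright here, and 7228 of the bright probe sets name exactly 1 gene. The other 9315 are called dim and were tested apart. Median signals of the shoot arrays lay between 41.1 and 45.2. Differences are given as log2(signal + 11) of Cs minus control shoots, with the standard error of a limma fit, and are called log2 differences below. In this fit the replicate number was a block, so that each Cs shoot array was set against the control shoot array of the same number.

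The pairing was used because the 2 shoot arrays numbered 1 stood apart from the other 4. Across bright probe sets, the log2 signals of the control and Cs arrays with the same number correlated at 0.978, 0.982 and 0.973 for numbers 1, 2 and 3. Arrays numbered 1 correlated at 0.911 to 0.935 with those numbered 2 or 3, while the 4 arrays numbered 2 or 3 correlated at 0.972 to 0.982 with each other. The difference between number 1 and the other numbers had an SD across probe sets of 0.492, against 0.175 for the difference between Cs and control. It exceeded 1 on the log2 scale in 617 bright probe sets. An example is CCL, a clock-controlled transcript named CCR-like, with control shoot signals of 226, 2022 and 3028 and Cs shoot signals of 234, 2529 and 2630. CCL was low in both arrays numbered 1, and the Cs and control values overlapped. Defining markers of the tissue were present: PSAE-1, a subunit of photosystem I, read 4142 to 4561 in shoots and 47.5 to 470 in roots, and RCA, which activates Rubisco, read 4354 to 5910 in shoots and 68.6 to 505 in roots.

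Caesium exposure was accompanied by few changes in the shoot transcriptome that passed a test. Of 13431 bright probe sets, 3 rose at an adjusted p under 0.05 (0.0223% of those tested), and 0 fell. The unadjusted p was under 0.05 for 884 (6.58%), beside 671.6 for evenly spread p-values. These were 517 higher (3.85%) and 367 lower (2.73%). The share of higher among these was 58.5%, and it was 46.5% (401 higher, 461 lower) when each array was centred on its median, so the balance of directions depended on the scaling. The median log2 difference over all bright probe sets was 0.01, and 9 in 10 lay between -0.26 and 0.30. Only 4 bright probe sets reached a log2 difference of 1, and 0 reached -1.

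The call of these 3 depended on the pairing. Without the replicate block 0 bright probe sets passed, each of the 3 had an adjusted p of 1, and 190 had an unadjusted p under 0.05. With the block kept, 0 passed as well in a fit of all 12 arrays, in a fit of bright and dim probe sets together, and in a fit without the intensity trend. Leaving out the 2 arrays numbered 1, which stood apart, gave log2 differences of 1.34, 1.33 and 1.11 for the 3 probe sets in the order in which they are described next, and all 3 passed among 17 calls. That smaller fit leaves 1 residual degree of freedom per probe set.

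The precision of the paired fit bounds what could have been seen. For a bright probe set the 95% confidence interval of the log2 difference reached a median of 0.30 to either side, which is 1.23-fold. On that scale the whole interval lay within 2-fold of no difference for 13328 bright probe sets (99.2%) and within 1.5-fold for 11455 (85.3%). For bright probe sets of low signal, the same bound is wider in the signal itself. These intervals rest on the paired model and its pooled estimate of spread, since the fit leaves 2 residual degrees of freedom per probe set.

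**Figure D1:**
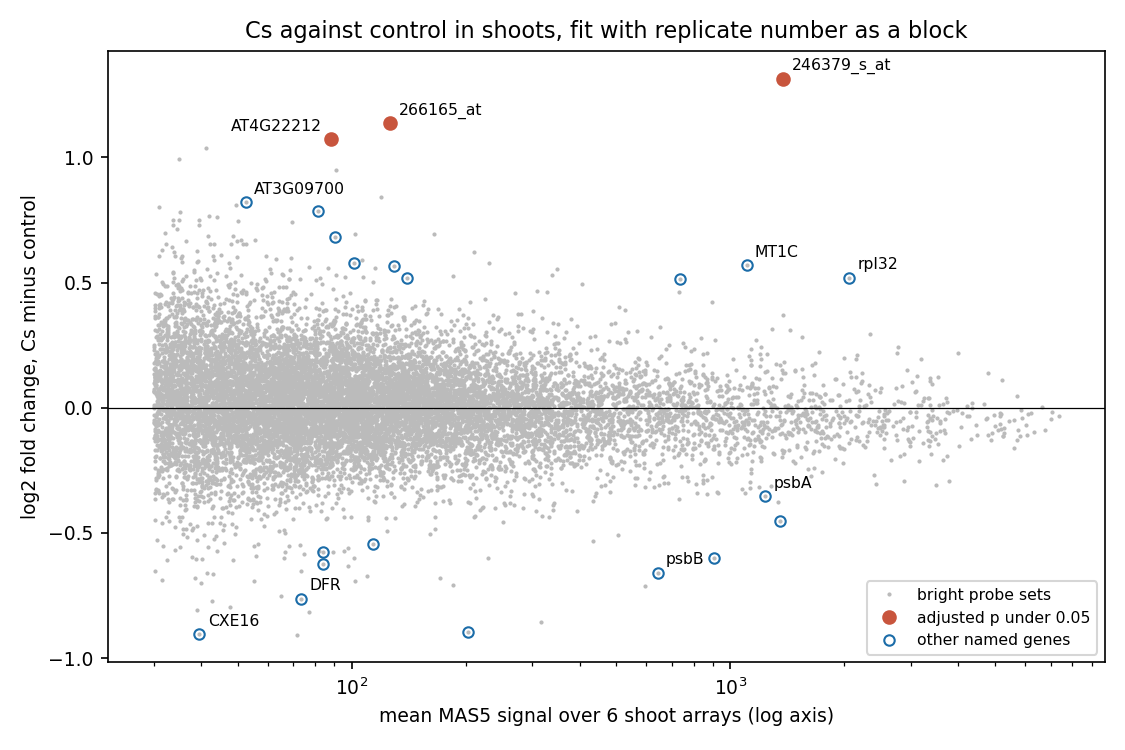
Log2 difference of Cs minus control shoots (y axis) against the mean signal over the 6 shoot arrays (x axis, log scale) for the 13431 bright probe sets. Filled red points are the 3 with an adjusted p under 0.05, all above 1; open blue circles are the other named genes, and most grey points lie between -0.26 and 0.30.

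The largest of the 3 rises was that of probe set 246379_s_at, which the annotation assigns to several genes and which is therefore given by its identifier. Its control shoot signals were 920, 481 and 1035, and its Cs shoot signals were 2215, 1818 and 1802. Every Cs array lay above every control array. The means were 812 ± 292 and 1945 ± 234 (SD, n = 3), and the log2 difference was 1.31 ± 0.14 (SE, adjusted p = 0.000699, limma with the block). In roots the same probe set read 1340, 1271 and 970 in controls and 970, 772 and 909 after exposure, a log2 difference of -0.42 ± 0.19. The difference between the organs was -1.74, with an adjusted p of 0.273, and did not pass.

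Probe set 266165_at names no gene in the annotation used here. It read 98.4, 85.1 and 47.5 in control shoots and 173, 192 and 164 in Cs shoots, again without overlap. The log2 difference was 1.14 ± 0.15 (adjusted p = 0.0056). In roots it read 187, 165 and 122 in controls against 417, 175 and 392, a log2 difference of 0.93 with an adjusted p of 0.291. Absence of overlap was seen in 807 bright probe sets (6.01%), 514 with Cs higher (3.83%) and 293 with Cs lower (2.18%).

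The only rise past the threshold with 1 named gene was that of AT4G22212, a locus to which the annotation gives no further name. Control shoot signals were 3.86, 56.6 and 94.6, and Cs shoot signals were 18.8, 130 and 225. The 2 groups overlapped, because numbers 1, 2 and 3 differed more than the exposures did, but the Cs array was the higher in each pair. The log2 difference was 1.07 ± 0.15 (adjusted p = 0.00881), and the pair differences were 1.00, 1.06 and 1.16. These sizes depend on the pseudocount, the constant added to each signal before the log. With a pseudocount 4 times as large the log2 difference was 0.71 (adjusted p = 0.0375), and with a smaller one 1.36 (adjusted p = 0.00952). Pair 1 rests on signals of 3.86 and 18.8, where the constant weighs most, so the likeness of the pair differences depends on it too. The transcript was far more abundant in roots, at 1646 to 3029 on every root array. Shoot signals were 0.145%, 2.13% and 3.56% of the mean root signal in controls and 0.708%, 4.90% and 8.47% after exposure. Without the arrays numbered 3 its adjusted p was 0.0536.

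Transcripts typical of roots had higher signals in Cs shoots, and they are described here because AT4G22212 is among them. Root-enriched transcripts were taken as the 97 probe sets whose mean over all root arrays exceeded that over all shoot arrays by at least 4 on the log2 scale. Of these, 81 were higher and 16 lower in Cs shoots, with a median log2 difference of 0.35, against 0.01 in the 9660 bright probe sets enriched in neither organ. The pair medians were 0.07, 0.23 and 0.58. The number higher in all 3 pairs was 42 of 97 (43.3%), against 15.3% of bright and 15.9% of dim probe sets. For the 39 of them that were bright in shoots the median was 0.44, with 35 higher. The bright cut, a mean of at least 30, includes the Cs arrays, so members higher in Cs pass it more readily. These 39 are therefore no separate observation. The summed signal of the 97 was 1.48%, 2.26% and 4.09% of that of the mean root array in control shoots and 1.69%, 3.09% and 6.49% in Cs shoots. Thus it was higher in the Cs array of each pair and highest in both arrays numbered 3, and the groups overlapped. In bulk tissue a larger share of cells of one kind and more RNA per cell cannot be told apart, and the part of this movement in the result for AT4G22212 was not tested.

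Hand-picked root markers are given next, of which PYK10 lies below the margin of 4 and so outside the 97. Below that margin, 240 probe sets bright in shoots were classed as moderately root-enriched. Their median was 0.10, with 162 higher and 78 lower, and 22.1% were higher in all 3 pairs. PYK10, a beta-glucosidase of root endoplasmic reticulum bodies, read 347, 475 and 561 in control shoots and 302, 472 and 779 in Cs shoots. It was higher only in pair 3, with a log2 difference of 0.09 (adjusted p = 0.959) that was -0.10 without the arrays numbered 3, and its root signals were 2901 to 3952. EXPA18, a wall-loosening expansin of root hairs, had a log2 difference of 0.04, and EXPA7, another root hair expansin, was dim in shoots, at 39.7, 27.3 and 9.39 in controls and 42.2, 26.0 and 21.7 after exposure. Of the 9 root-typical loci listed, 3 were matched to a probe set of their own by the annotation. Here and below, a locus without a match may still be measured by a probe set that carries no name. The 271 probe sets enriched in shoots by at least 4 had a median of -0.03, with 177 lower and 94 higher.

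**Figure D2:**
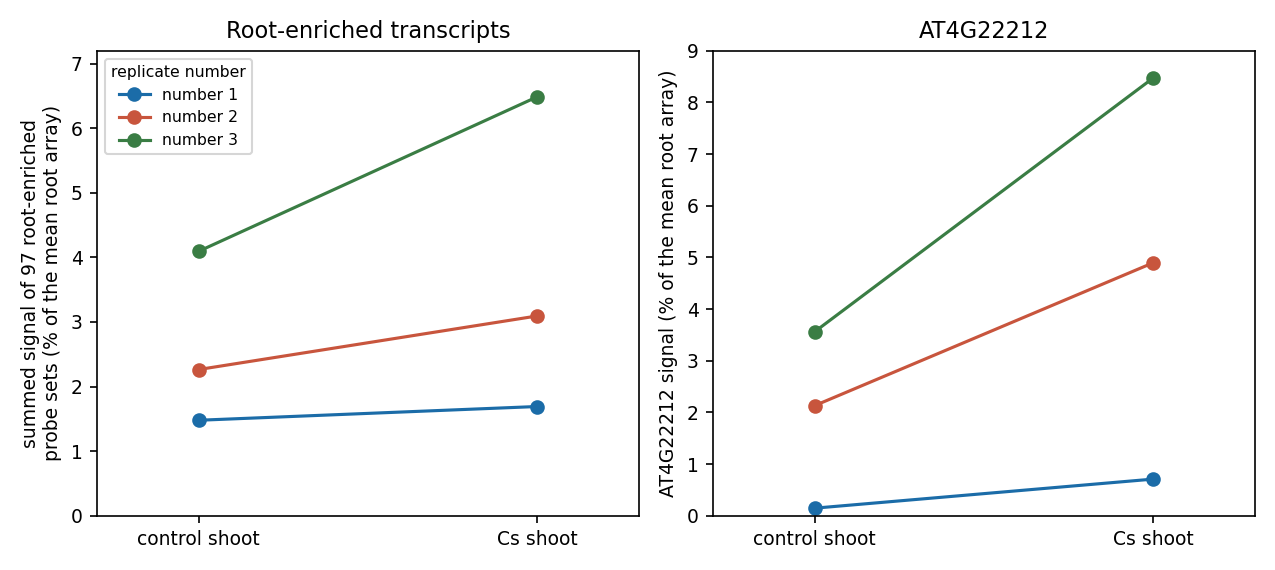
Summed signal of the 97 root-enriched probe sets (left) and signal of AT4G22212 (right) in each shoot array, as a percentage of the mean root array (y axes); lines join arrays with the same replicate number. In both panels the Cs array is the higher in each pair, and number 3 is the highest, at 6.49% and 8.47%.

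Beyond these, the genes named here are the 10 bright genes in each direction with the smallest p among those that differed in the same direction in all 3 pairs, AT4G22212 included. They were ranked by the contrast itself, so their sizes are a description. Among bright probe sets 2049 (15.3%) were higher and 1585 (11.8%) lower in all 3 pairs, together 27.1%.

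MT1C, a metallothionein that binds metal ions through its cysteines, came closest to the threshold among them. Control shoot signals were 830, 862 and 964, and Cs shoot signals were 1356, 1177 and 1431. The groups did not overlap, and the log2 difference was 0.57 ± 0.10 (adjusted p = 0.0713). Its adjusted p was 0.0256 where a mean signal of at least 60 was asked for and 0.0202 after quantile normalization. With median centring it was 0.122, without the intensity trend 0.610, with all 12 arrays 0.704 and without the filter 0.875. Nor did MT1C pass without the block. Leaving out number 1, 2 or 3 gave log2 differences of 0.51, 0.63 and 0.57. Their adjusted p-values (limma) were 0.1375, 0.00179 and 0.0315, from fits with 1 residual degree of freedom. MT1C was also a transcript of higher level in roots, where it read 3576 to 4316. In roots its log2 difference between exposures was 0.15.

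The other members of the higher set showed differences of 0.51 to 0.82, with adjusted p-values from 0.143 to 0.313. The plastid gene rpl32, for a protein of the plastid ribosome, read 1968, 1485 and 1633 in control shoots and 2395, 2484 and 2377 in Cs shoots, without overlap. The plastid gene psbL, for a small subunit of photosystem II, read 451, 604 and 777 and then 752, 867 and 963. Its groups overlapped, and the Cs array was the higher in each pair, by 0.30 to 0.72. AT3G09700 read 29.2, 31.4 and 43.9 in control and 80.3, 53.6 and 76.5 in Cs shoots, without overlap, and its log2 difference was 0.82 in shoots and -0.41 in roots. AT5G39600 was at 59.8, 89 and 89.2 in controls and at 106, 146 and 117 after exposure. AT5G04790 was at 82.7, 105 and 119 and then at 136, 168 and 164. Both of these loci were likewise free of overlap.

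AT4G23680 did not pass in either organ, and its Cs array was the higher in all 3 pairs of shoots (42.4, 67.5 and 50.9 against 61.4, 181 and 84.7) and of roots (16.9, 58.4 and 57.8 against 50.1, 129 and 84.9). Its log2 differences were 0.78 in shoots and 0.87 in roots, with adjusted p-values of 0.143 and 0.226. AT3G07540 read 43.1, 88.2 and 71.4 and then 87.7, 126 and 124, with overlap in 1 array. AT1G35780 read 89.6, 126 and 122 and then 124, 211 and 169, also with overlap. In all, 5 of the 10 higher genes had groups without overlap, beside 3.83% of all bright probe sets with Cs higher. The 10 were ranked by the same contrast, so a larger share is built in. Of the 10, 7 had a log2 difference above 0 in roots as well, and 5 had higher signals in roots than in shoots. Without the arrays numbered 1 the log2 differences of the 10 ran from 0.41 (psbL) to 1.11 (AT4G22212).

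The named genes with lower signals included transcripts of the light reactions, of anthocyanin synthesis and of the cold response, and 0 of the 10 passed the threshold. Their adjusted p-values ran from 0.144 to 0.450. Groups without overlap were seen in 2 of the 10, ranked by the same contrast, beside 2.18% of all bright probe sets with Cs lower. The lowest p belonged to psbB, the plastid gene of the CP47 core antenna of photosystem II, with control signals of 399, 1058 and 969 and Cs signals of 371, 595 and 461. The gap was narrow in pair 1 and wider in the others (-0.10, -0.82 and -1.05), with a log2 difference of -0.66 ± 0.14. Without the arrays numbered 1 it was -0.94. The plastid gene psbA, for the D1 protein of the photosystem II reaction centre, read 1006, 1526 and 1646 and then 809, 1172 and 1266, with pair differences of -0.31 to -0.38.

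COR15A, a cold-regulated protein of the chloroplast stroma, read 1179, 1416 and 2152 in control shoots and 1005, 1220 and 1134 in Cs shoots. The groups overlapped, pair 3 carried the widest gap, and the log2 difference was -0.45 ± 0.12 (adjusted p = 0.412). Without the arrays numbered 3 it was -0.22. AT4G25660 read 127, 129 and 155 and then 86.2, 87.7 and 96.8, without overlap (log2 difference -0.54, adjusted p = 0.276). CXE16, a carboxylesterase, was also free of overlap, at 65.9, 43.6 and 51.6 against 25.5, 40.8 and 10.2, although pair 2 differed by only -0.08. Its log2 difference of -0.90 was -0.58 without the arrays numbered 3.

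AT4G34950 and AT3G62550 depended on the arrays numbered 1. AT4G34950 read 70.7, 343 and 297 and then 10.4, 295 and 200, and its log2 difference of -0.90 was -0.38 without number 1. AT3G62550 read 135, 1354 and 1481 and then 48.2, 1053 and 1348, and its -0.60 was -0.25 without number 1. Both transcripts were lowest in number 1 in either group. So was AT1G11210, which read 99.9 and 200 in the control arrays numbered 2 and 3, 73.8 and 102 in the Cs arrays of those numbers, and under 20 in both arrays numbered 1.

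**Figure D3:**
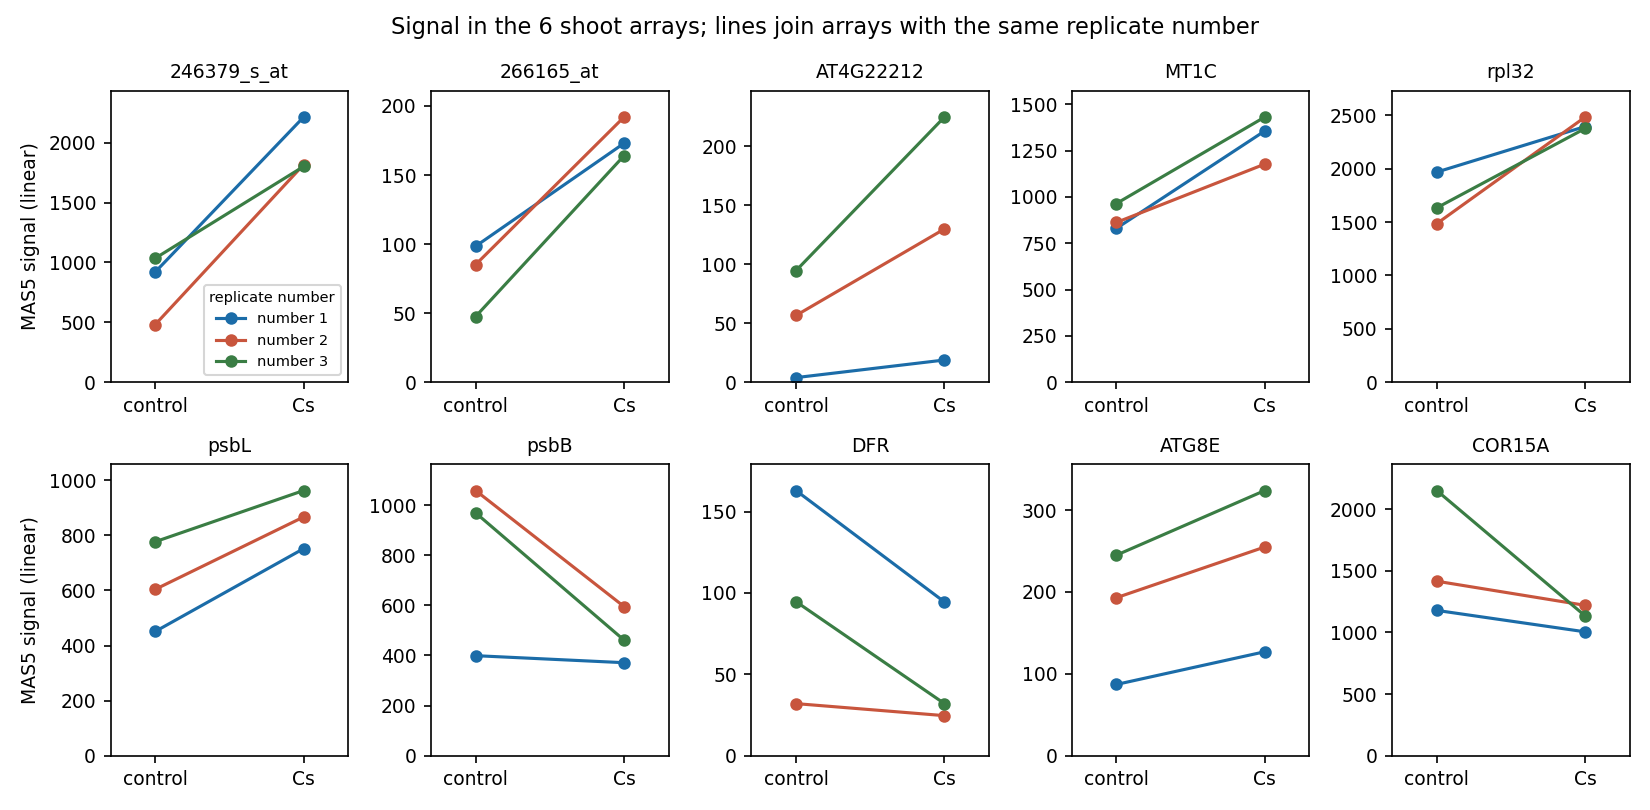
Linear signals (y axis) of the 3 called probe sets and of MT1C, rpl32, psbL, psbB, DFR, ATG8E and COR15A in control and Cs shoots; each line joins the arrays with the same replicate number. 246379_s_at, 266165_at, MT1C and rpl32 have every Cs array above every control array, while in the other 6 panels the groups overlap.

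Flavonoid synthesis was the list with the lowest median. Of its 16 loci, 5 were matched to a probe set of their own and 4 were bright. DFR, dihydroflavonol reductase, which commits flavonoids to anthocyanins, read 163, 32.0 and 94.7 in control shoots and 94.5, 24.6 and 32.0 in Cs shoots. UF3GT, a glycosyltransferase of the same pathway, read 232, 31.6 and 64.0 and then 114, 23.3 and 38.5. Both were lower in all 3 pairs, overlapped between groups and were highest in the control array numbered 1. AT4G14090, listed with them, read 144, 3.77 and 23.8 and then 78.0, 3.83 and 4.14, and was at its lowest, near 4, in 3 of the 6 arrays. UGT78D2, which glycosylates flavonols and anthocyanidins, was higher only in pair 3 (263, 70.7 and 80.3 against 248, 67.3 and 114).

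The log2 differences were -0.76 for DFR, -0.62 for UF3GT, -0.67 for AT4G14090 and 0.11 for UGT78D2, with a list median of -0.64 beside 0.01 over all bright probe sets. The first 3 had unadjusted p-values under 0.05, beside 2.73% of all bright probe sets that were lower at that level. After adjustment 0 of the 4 passed. The same 4 transcripts differed more by replicate number than by exposure: the arrays numbered 1 exceeded the others by a median of 1.69 on the log2 scale. The list median was -0.53 without number 1 and -0.45 without number 3, and the value of DFR was -0.50 without number 3. In roots DFR read 69.8, 20.9 and 65.2 and then 49.7, 32.0 and 26.3, a log2 difference of -0.34 (adjusted p = 0.766).

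Nuclear genes of photosynthesis lay slightly lower in Cs shoots. Of 15 loci listed, 7 were matched to a probe set, all bright. All 7 had a negative log2 difference, with a median of -0.13 and a range of -0.21 to -0.03. Of the 7, 3 were lower in all 3 pairs, against 11.8% of bright probe sets, and 0 passed the threshold. PRK, the phosphoribulokinase of the Calvin cycle, read 3935, 3177 and 2990 in control shoots and 3600, 2774 and 2397 in Cs shoots, with an unadjusted p of 0.0273 and overlapping groups. LHCB4.1, an antenna protein of photosystem II, read 6149, 5791 and 5784 and then 5148, 5658 and 5046, without overlap. The list median was -0.06 without the arrays numbered 1 and -0.07 without those numbered 3.

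Among the 5 bright antioxidant enzymes the median log2 difference was -0.07 and 0 passed. GR, a glutathione reductase, read 986, 786 and 679 in control and 810, 609 and 598 in Cs shoots, lower in each pair with overlap (log2 difference -0.27, unadjusted p = 0.0145, adjusted p = 0.691). The other reductase, GR1, was at -0.16, the thylakoid ascorbate peroxidase TAPX at -0.07, the stromal ascorbate peroxidase SAPX at 0.05, and AT3G11630 at 0.09. STZ, a zinc finger factor induced by oxidative and salt stress, read 31.0, 46.1 and 14.4 in controls and 67.1, 23.2 and 27.3 after exposure, and its pairs went in opposite directions.

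Genes tied to DNA damage gave little to read on this annotation. Of 18 loci listed as induced by DNA damage 1 was matched to a probe set. This was AT4G22960, at 46.2, 34.5 and 31.4 in control and 42.3, 33.8 and 31.4 in Cs shoots, a log2 difference of -0.04. Of 17 repair genes 2 were matched, both bright. UNG, which removes uracil from DNA, was at -0.11 and ATLIG4, the ligase of non-homologous end joining, at -0.03. For all 3 the adjusted p was at least 0.973. SIM, an inhibitor of cyclin-dependent kinases that promotes endoreduplication, read 43.1, 63.1 and 41.4 and then 52.8, 72.7 and 72.9, higher in each pair with overlap (log2 difference 0.37, adjusted p = 0.734). The mitotic Aurora kinases AUR1 and AUR2 were at 0.00 and 0.09, and PRL, a factor of DNA replication, at 0.02.

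For potassium and caesium transport, the annotation matched 1 of 26 loci to a probe set. This was AT1G60160, at 51.5, 139 and 131 in control and 62.3, 129 and 114 in Cs shoots (log2 difference -0.02, adjusted p = 0.993). The clock gene GI was at -0.23 and CCL at 0.06, and the dehydrin COR47 at -0.09. In the heat shock, salicylic acid, jasmonate and touch lists, 1 of 9, 1 of 10, 2 of 8 and 0 of 3 loci were matched to a probe set. Of these, 0 were bright, so these lists say little about such transcripts. Altogether 44 of 220 listed loci were matched to a probe set of their own, 33 were bright, and 0 passed the threshold. The other loci may be measured by some of the 8730 probe sets that carry no name here, so they were not assessed.

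Of the 69 plastid-encoded genes with a probe set, 68 were bright. Their log2 differences had both signs, with 40 higher and 28 lower and a median of 0.03, and 0 of the 68 passed the threshold. At an unadjusted p under 0.05 there were 10 higher and 7 lower, against 3.85% and 2.73% of all bright probe sets. In photosystem II 11 of 15 genes were lower, and 5 were lower in all 3 pairs, against 11.8% of all bright probe sets. Besides psbB and psbA these included psbD, for the D2 reaction centre protein, at 1618, 1725 and 1165 in control and 1578, 1026 and 909 in Cs shoots (log2 difference -0.38). The value of psbN, -0.69, came from pair 3, since it read 36.0, 38.9 and 154 and then 35.1, 33.7 and 33.5. In photosystem I psaA, a reaction centre subunit, read 2929, 3295 and 3230 and then 2546, 2884 and 2313, without overlap (-0.29), whereas the small subunit psaJ was at 0.22.

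The small photosystem II genes psbE, psbF, psbL and psbJ form 1 operon. Within it psbL was at 0.51 and psbJ, which read 828, 1320 and 1771 and then 1336, 1498 and 1859, at 0.31, while psbF was at 0.08 and psbE at -0.01. Of 15 ribosomal protein genes of the plastid 12 were higher and 3 lower. Besides rpl32, rps3 read 1843, 2119 and 2324 in control and 2351, 2857 and 2503 in Cs shoots, without overlap (0.30), and rpl36 was at 0.30, while rpl14 was at -0.37 and rpl16 at -0.21. The polymerase subunit gene rpoA read 322, 422 and 583 and then 542, 555 and 620 (0.40), and rpoB, a dimmer member, was at -0.30, or 0.02 without the arrays numbered 3. The NDH complex carries electrons around photosystem I. Of 9 subunits, 5 were higher in all 3 pairs, against 15.3% of all bright probe sets. These 5 were higher by up to 0.21 (ndhC), and the other 4 lay between -0.12 and 0.00. Without the arrays numbered 1 the median over all 68 was -0.02, and for the ribosome and polymerase genes it went from 0.06 to -0.02.

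**Figure D4:**
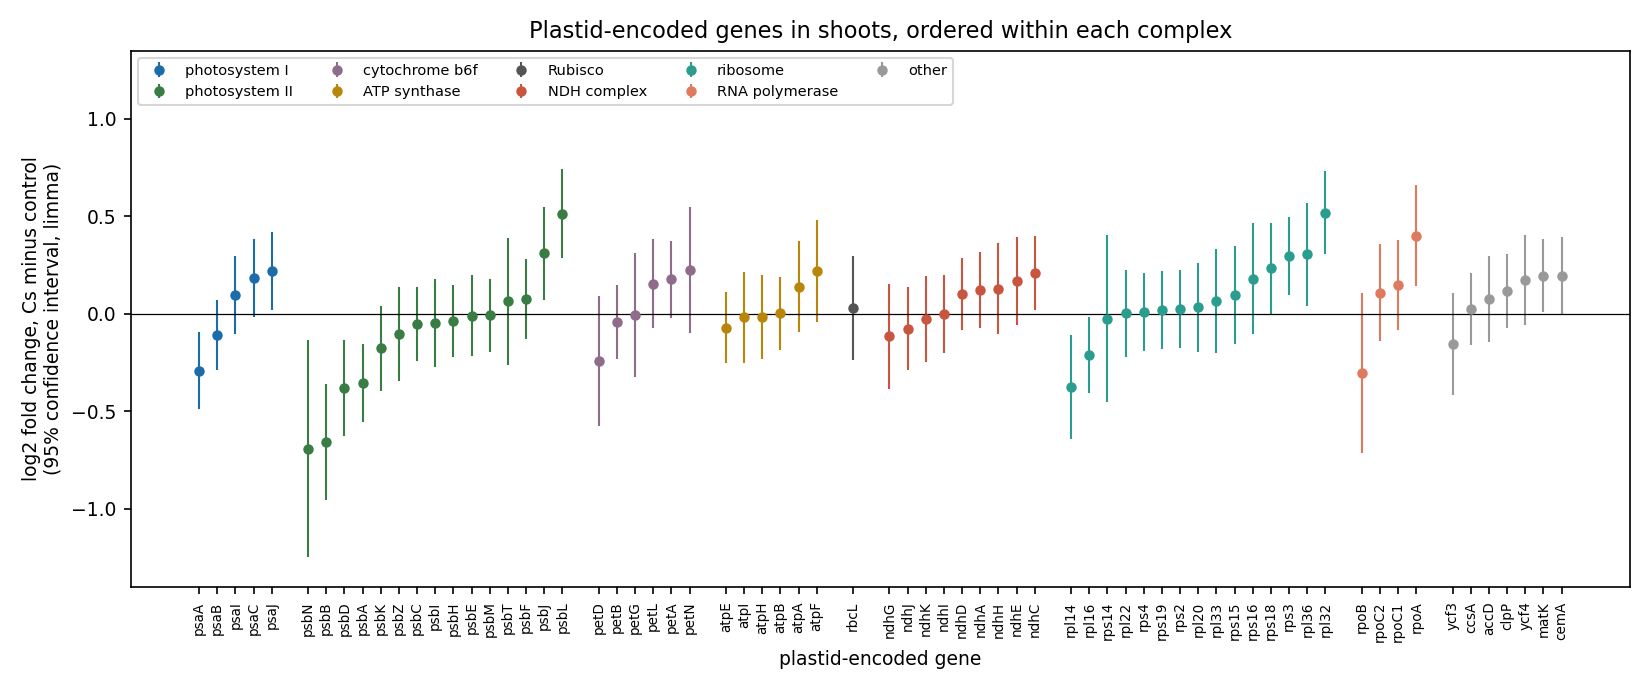
Log2 difference of Cs minus control shoots (y axis) with its 95% confidence interval for the 68 bright plastid-encoded genes, ordered within each complex (x axis, colours). Photosystem II runs from -0.69 (psbN) to 0.51 (psbL) and the ribosome from -0.37 (rpl14) to 0.52 (rpl32), and 0 of the 68 genes passed the adjusted threshold.

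Among 30 gene groups with at least 3 bright members, medians lay between -0.15 and 0.13, and 0 members passed the threshold. Medians this near 0 depended on single pairs: of 34 lists and groups with at least 3 bright members, 19 had a median that changed sign when 1 of the replicate numbers was left out. Autophagy genes, whose products form the vesicles that carry cell contents to the vacuole, had 7 of 8 higher, with a median of 0.10. ATG8E, one of the ubiquitin-like proteins that coat these vesicles, read 87.0, 193 and 245 in control and 127, 255 and 324 in Cs shoots, a log2 difference of 0.42 ± 0.12 (unadjusted p = 0.00247, adjusted p = 0.467). Its relatives ATG8B (0.43) and ATG8C (0.30) were likewise higher in all 3 pairs, ATG8F, ATG8H, ATG8D and ATG3 lay between 0.02 and 0.11, and ATG8G was at -0.01. The 3 leading members had overlapping groups. The group median was 0.14 to 0.16 when 1 replicate number was left out.

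LSM proteins, which form rings on RNA in splicing and decay, had 5 of 6 members higher, with a median of 0.11. LSM6B read 81.9, 89.9 and 111 in control and 121, 114 and 133 in Cs shoots, and LSM3A read 42.0, 62.3 and 65.5 and then 72.4, 77.8 and 71.3. Neither pair of groups overlapped, their log2 differences were both 0.35, and their adjusted p-values were 0.692 and 0.740. The 6 tetraspanins, membrane proteins of the cell surface, had a group median of 0.13, with 4 higher. TET8 read 235, 184 and 237 in control and 263, 239 and 263 in Cs shoots, without overlap (0.22, adjusted p = 0.816).

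The 112 bright cytosolic ribosomal proteins had 72 lower and 40 higher and a median of -0.03. The pair medians were 0.04, -0.14 and 0.03, so the lower values came from pair 2, and the median was 0.02 without the arrays numbered 2. AT4G39200 of this group read 822, 804 and 650 in control and 1249, 845 and 992 in Cs shoots, without overlap (0.42, adjusted p = 0.412), and AT3G16780 was at -0.29. Tubulins were lower in 6 of 7, with a median of -0.09. Their pair medians were -0.21, 0.05 and -0.01, and the median was -0.03 without the arrays numbered 1 and -0.04 without those numbered 3. Photosystem and light-harvesting proteins encoded in the nucleus share PSBY, LHCB4.1 and PSBW with the list of nuclear photosynthesis genes above. The 5 members of this group were all lower, with a median of -0.15. Their pair medians were -0.13, -0.03 and -0.01, and the median was -0.06 without the arrays numbered 1 and -0.08 without those numbered 3.

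Families linked to detoxification had medians near 0. The 7 bright glutathione S-transferases had a median of 0.02, with 4 higher and 3 lower. The 23 UGT glycosyltransferases had 0.04. The 10 genes with CYP symbols, grouped by name only and CYP71 among them, had 0.02. The medians of the glutathione S-transferases and of the CYP genes turned just below 0 when each array was centred on its median. That of the UGT enzymes was -0.04 without the arrays numbered 3. CYP71B24 read 61.0, 40.6 and 62.6 in control and 82.2, 73.3 and 83.9 in Cs shoots, without overlap (0.48, adjusted p = 0.520), whereas CYP78A9 was lower in each pair (-0.35). In other families TY1, a plastid thioredoxin, was at 0.44, the factor bZIP44 at 0.47, the sugar transporters SWEET16 and SWEET13 at 0.32 and -0.35, the expansin-like EXLB1 at -0.44 and the ubiquitin ligase PUB19 at -0.58, none of them past the threshold.

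**Figure D5:**
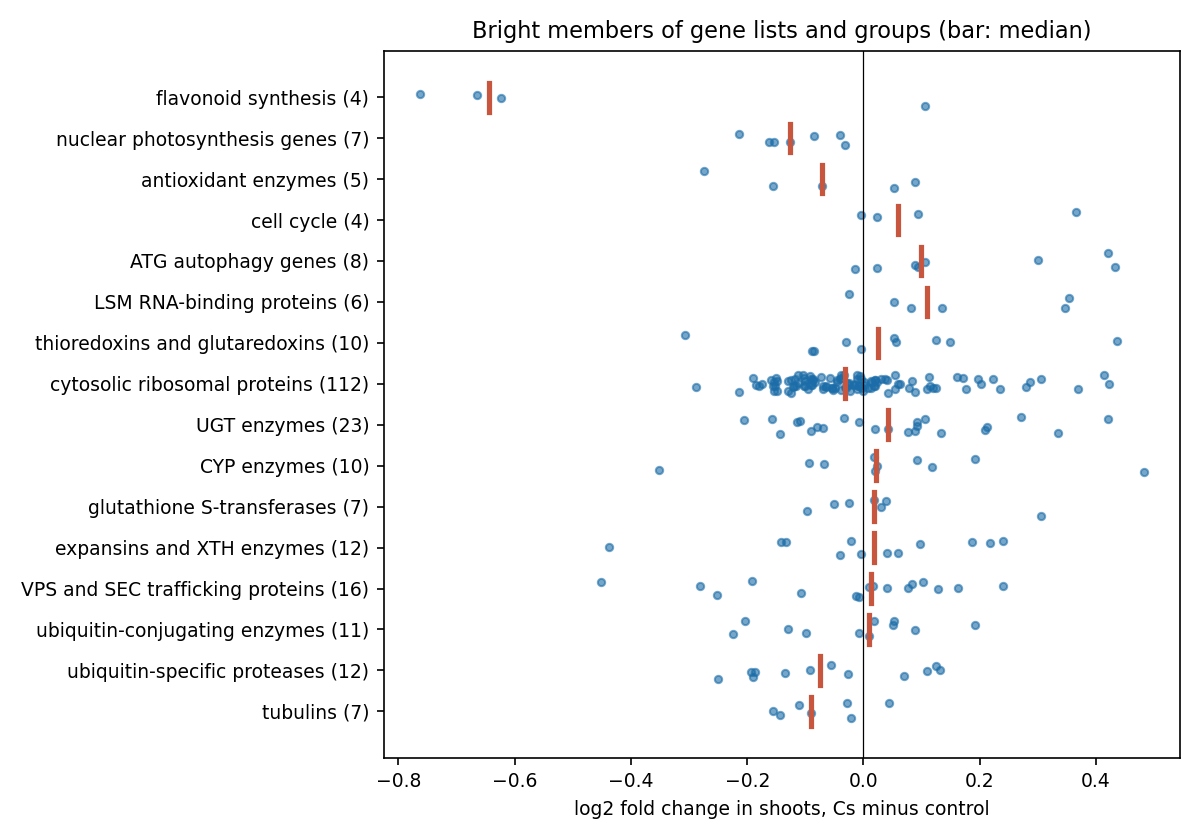
Log2 difference of Cs minus control shoots (x axis) for each bright member of 16 gene lists and groups (rows, number of members in parentheses), with the median as a red bar. The flavonoid median is the lowest at -0.64, and the autophagy and LSM medians lie at 0.10 and 0.11.

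Dim probe sets gave 0 calls among 9315 at an adjusted p under 0.05. The unadjusted p was under 0.05 for 440 (4.72%), below the 465.8 of an even spread, with 300 higher (3.22%) and 140 lower (1.5%). Intervals were wider than for bright probe sets, at a median of 0.52 to either side, or 1.43-fold. The 3 named in each direction had an adjusted p of 0.886. AT3G01880 read 2.52, 3.39 and 7.33 in control and 24.3, 19.2 and 22.1 in Cs shoots (log2 difference 1.1), and AT5G01080 read 26.5, 18.3 and 31.5 and then 7.08, 6.29 and 7.07 (-1.02). Neither overlapped between groups, as was true of 8.97% of dim probe sets (5.85% with Cs higher, 3.12% with Cs lower). In all 3 pairs 15.9% of dim probe sets were higher and 10.3% lower. Without the arrays numbered 1, 10 dim probe sets passed. AT1G12720 was at 0.86, and AT5G35800, AT3G30845 and AT5G35280 were at signals under 10 in all 6 shoot arrays.

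The 3 pairs repeated each other little. Across bright probe sets the Cs minus control differences of pairs 1 and 2 correlated at 0.06, those of 1 and 3 at 0.02 and those of 2 and 3 at 0.05, and the pairs share no array. The SD of the differences was 0.296, 0.262 and 0.311. Log2 differences of at least 1 were found for 56, 23 and 47 bright probe sets in pairs 1, 2 and 3, and differences of -1 or less for 36, 25 and 55. Averaged over pairs, AT1G72230 was the remaining bright gene at or above 1 (1.04, adjusted p = 0.389), chosen here after its values were seen, and its pair differences were 0.61, 0.29 and 2.23.

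The effect of exposure differed between shoots and roots for 1 of the 13431 bright probe sets (0.00745%), in a limma fit of all 12 arrays with the replicate number as a block within each organ. This was AT3G60420, with control shoot signals of 47.6, 41.6 and 45.5 and Cs shoot signals of 26.1, 45.8 and 27.4, so that 2 of 3 pairs were lower and the groups overlapped. In roots it read 10.6, 39.3 and 56.7 in controls and 60.3, 150 and 214 after exposure, higher in each pair and without overlap. The log2 differences were -0.37 ± 0.20 in the fit of shoots alone (adjusted p = 0.817) and, in the fit of all arrays, 1.71 ± 0.17 in roots (adjusted p = 0.00954). Their difference, root minus shoot, was 2.08 ± 0.24 (adjusted p = 0.0414). It did not pass without the block (adjusted p = 1.00), without number 1 (0.393) or without number 3 (0.983).

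None of the 20 named bright genes passed the test of the difference between organs, with adjusted p-values from 0.584 to 0.987. For psbB, psbA and COR15A the root values carry little, since their root signals were low apart from the Cs root array numbered 2, where they read 121, 201 and 167. That array also held more of other shoot transcripts, with PSAE-1 at 470 against 47.5 to 127 on the other 5 root arrays. In the fit of all 12 arrays, 1131 of the same probe sets had an unadjusted p under 0.05 in roots (8.42%), and 1 passed. In shoots the same fit gave 646, and 0 passed. In its test of the difference 799 had an unadjusted p under 0.05 (5.95%).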

How the data were processed

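Labelled RNA of 12 samples was hybridised to ATH1 arrays. The authors deposited MAS5 intensities, 1 linear value per probe set and array; MAS5 is named without a version, per the submitters' processing notes. For the background method and the detection calls, nothing was given in the sources used here. The 2% trimmed mean of every array was 100, and 0 pairs of arrays held identical values. Groups and replicate numbers came from the sample titles. No depth applies to arrays, whose number limits the precision.

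Of 22746 probe sets analysed, 13513 name 1 gene in the platform annotation, 503 name several, and 8730, absent from that annotation, carry no name here. RefSeq's TAIR10.1 table gave current symbols (13436 found). Coordinates and sequences are not used here.

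Intensities were transformed as log2(signal + 11), which understates changes of dim probe sets and of bright ones with low signals. Limma 3.58.1 in R 4.3.3 (lmFit, eBayes with an intensity trend, 2 residual degrees of freedom) was fitted to the 6 shoot arrays with the replicate number as a block, for bright (mean of at least 30) and dim probe sets apart, with Benjamini-Hochberg adjustment and a threshold of 0.05. All adjusted p-values are from limma. The script was tested on simulated data. Same-numbered control and Cs shoots deviated together from their group means (correlations 0.77, 0.49 and 0.52 for numbers 1, 2 and 3; 0.29 and 0.44 between unlike numbers 2 and 3). The data thus set number 1 apart, but for numbers 2 and 3 like numbers deviated together little more than unlike ones. Their deviations also share the departure of number 1 from the group means. Matching numbers 2 and 3 therefore rests on the numbers in the titles. No label states that arrays of the same number belong together.

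Named bright genes were those past the threshold that moved the same way in 3 of 3 pairs, filled by the smallest p to 10 in each direction; 3 dim genes in each direction, those past the threshold between organs, and leading members of each list and group were added. The members, lists and groups were chosen with earlier results of these data known. Groups were defined from gene names, by chromosome or by locus. Those under 3 bright members, or whose name pattern was seen to take unrelated genes, were left out. Groups kept by symbol may still hold a gene that shares only the name, such as CYP71 or SWEETIE. Alternatives were the block, the arrays fitted, the pseudocount, the filter, the normalization, the trend and leaving out each replicate number. A planned search of promoters for motifs was not run.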

Additional observations from a re-analysis of the deposited data

Results flagged for a closer look

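AT3G60420 is listed because its response to exposure differed between roots and shoots by a test of the difference itself. The log2 difference of Cs minus control was larger in roots than in shoots by 2.08 ± 0.24 (adjusted p = 0.0414, limma, all 12 arrays). It was higher after exposure in 3 of 3 root pairs and in 1 of 3 shoot pairs. Leaving out number 2 gave 2.33 (adjusted p = 0.0247), and leaving out number 1 or 3 gave 1.93 and 1.97, which did not pass.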

How the results depend on the processing

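The count of bright probe sets past the threshold, 3 with the replicate block, was 0 without the block, 0 with all 12 arrays, 0 without the low-signal filter (22746 probe sets tested together), 0 without the intensity trend, 6 with a mean of at least 60 and 5 after quantile normalization, and stayed at 3 with either other pseudocount and with median centring. Leaving out each replicate number in turn gave 17 to 67, from 1 residual degree of freedom; the 3 were all among them without number 1 or 2, and 2 of them without number 3. Adjusted p-values of the 3 were 1 without the block, 0.246 to 0.704 with all 12 arrays, 0.875 without the filter and 0.110 to 0.232 without the trend. At an unadjusted p under 0.05 there were 138 higher and 52 lower without the block, and 216 lower with all 12 arrays. Dim probe sets gave 0 to 10 calls when a number was left out, the 10 without number 1. The difference between organs gave 0 calls without the block and 0 to 1 when a number was left out. Of 88 genes and probe sets named in shoots, 18 changed sign when 1 of the numbers was left out, none of them past the threshold or among the 20 named bright genes. Their log2 differences over these 3 fits ran from -0.069 to 0.20 for UGT78D2, -0.10 to 0.23 for PYK10, -0.0062 to 0.11 for EXPA18, -0.63 to 0.022 for rpoB, -0.10 to 0.065 for psbE and -0.010 to 0.18 for psbF. They ran from -0.087 to 0.098 for ATG3, -0.10 to 0.12 for ATG8G, -0.051 to 0.17 for ATG8H, -0.17 to 0.064 for ATLIG4, -0.27 to 0.082 for UNG, -0.087 to 0.066 for AUR1 and -0.14 to 0.14 for PRL. The ranges were -0.076 to 0.19 for CCL, -0.089 to 0.16 for SAPX, -0.19 to 0.0070 for TAPX, -0.073 to 0.75 for STZ and -0.14 to 0.064 for AT1G60160. Under the other alternatives 2 changed sign, EXPA18 (-0.011) and psbE (0.025), both after quantile normalization. rpl32 passed after quantile normalization (adjusted p = 0.0385). Of 102 list and group medians with a number left out, 17 moved by more than the SD of the pair medians, among them the photosystem and light-harvesting proteins (from -0.15 to -0.06 without number 1), bHLH factors (from -0.11 to 0.03 without number 3) and ubiquitin-specific proteases (from -0.07 to 0.09 without number 3). Under the other alternatives 1 did, that of the PUB ubiquitin ligases (from -0.07 to -0.31 with a mean of at least 60). The causes were not tested. Signals near background limit what dim probe sets can show, and the search for promoter motifs was not run.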
